A study of Mus musculus with 6 samples.

Results

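Sox9, Sox5, Sox6, Acan, Otor, Matn1, Matn3, Hapln1 and Comp are 9 genes of chondrocyte regulation and cartilage matrix, here followed in cells of a pre-osteoblast line. They were chosen by name, with collagens left out, and matched through the RefSeq transcript of each array probe, which gave 10 probes of 39429 and 9 genes of the 20659 genes with a probe. The cells were MC3T3-E1, an established mouse line, kept for 3 days on a scaffold in 24-well plates. The De-HA group (n = 3) grew on FeMnSi scaffold, an iron, manganese and silicon alloy, after dealloying, a selective leaching of metal, and a bioactive coating, while the FeMnSi group (n = 3) grew on the unmodified alloy. RNA of each sample was labelled with Cy3 and hybridised to 1 Agilent array. Whether the 3 replicates of a group came from different cultures is not stated in the labels, so each p-value reflects variation among these samples that may be technical.

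SOX9 is the transcription factor that commits mesenchymal cells to cartilage, and it acts with the related proteins SOX5 and SOX6 on genes of the cartilage matrix. That matrix is built of aggrecan bound to hyaluronan, an attachment held by link protein, within collagen fibrils that matrilins and COMP help to connect. Osteoblasts and chondrocytes come from a common progenitor that expresses Sox9, and mature osteoblasts normally make little cartilage matrix.

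Levels are given as processed signal, a linear intensity that Feature Extraction had corrected for background within each array. Differences are on the log2 scale after each array was divided by its own 75th percentile, which ran from 582 to 654 in De-HA and from 654 to 720 in FeMnSi. Levels of different probes are not comparable with each other. The share of probes well above background, the scanner software's own call, was 63.5% to 74.4% in De-HA and 69.2% to 73.2% in FeMnSi, and no spot was saturated. Slide was inferred from the scan times in the file headers, and no slide label was read. By scan times slide 1 carried all De-HA arrays together with FeMnSi 1, and slide 2 carried the other FeMnSi arrays. A within-slide value is therefore the De-HA mean minus FeMnSi 1. All 8 osteoblast markers were well above background on 6 arrays. So were 6 of the 13 chondrocyte markers (Sox9, Sox5, Sox6, Acan, Ucma and Chad), while Matn3 was so on 3 arrays, Comp on 2, Hapln1, Snorc and Epyc on 1 and Cnmd and Matn1 on 0. Signals per sample are given in the order of replicates 1, 2 and 3.

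The 9 members fell into 3 kinds by signal. Sox9, Sox5, Sox6, Acan and Otor were well above background on all 6 arrays. Matn3 was so on the 3 FeMnSi arrays alone. Comp reached that call on 2 arrays, Hapln1 on 1 and Matn1 on none. Probes well above background on at least 3 arrays were tested, and this left Sox9, Sox5, Sox6, Otor and Matn3 in the fit. Acan was left out of it because its spot on FeMnSi 3 was marked as non-uniform, and Comp, Hapln1 and Matn1 were too dim. The members were listed with the De-HA and FeMnSi signals known, so their differences are given as a description with no p-value. In the limma fit across all 15535 genes, 10.7% of genes passed an adjusted p of 0.05, 6.46% as higher and 4.29% as lower in De-HA. Of the 5 members fitted, Otor was past that threshold as higher and Matn3 as lower. Those counts describe the fit and are no test of the members, and Matn3 entered it only through the FeMnSi arrays, where it was high. The arrays of the groups were apart for Otor, Matn3 and, on the scaled values, Sox9, and for 39.1% of all genes. In bulk RNA, fewer cells of a type and less RNA per cell cannot be told apart.

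**Figure D1:**
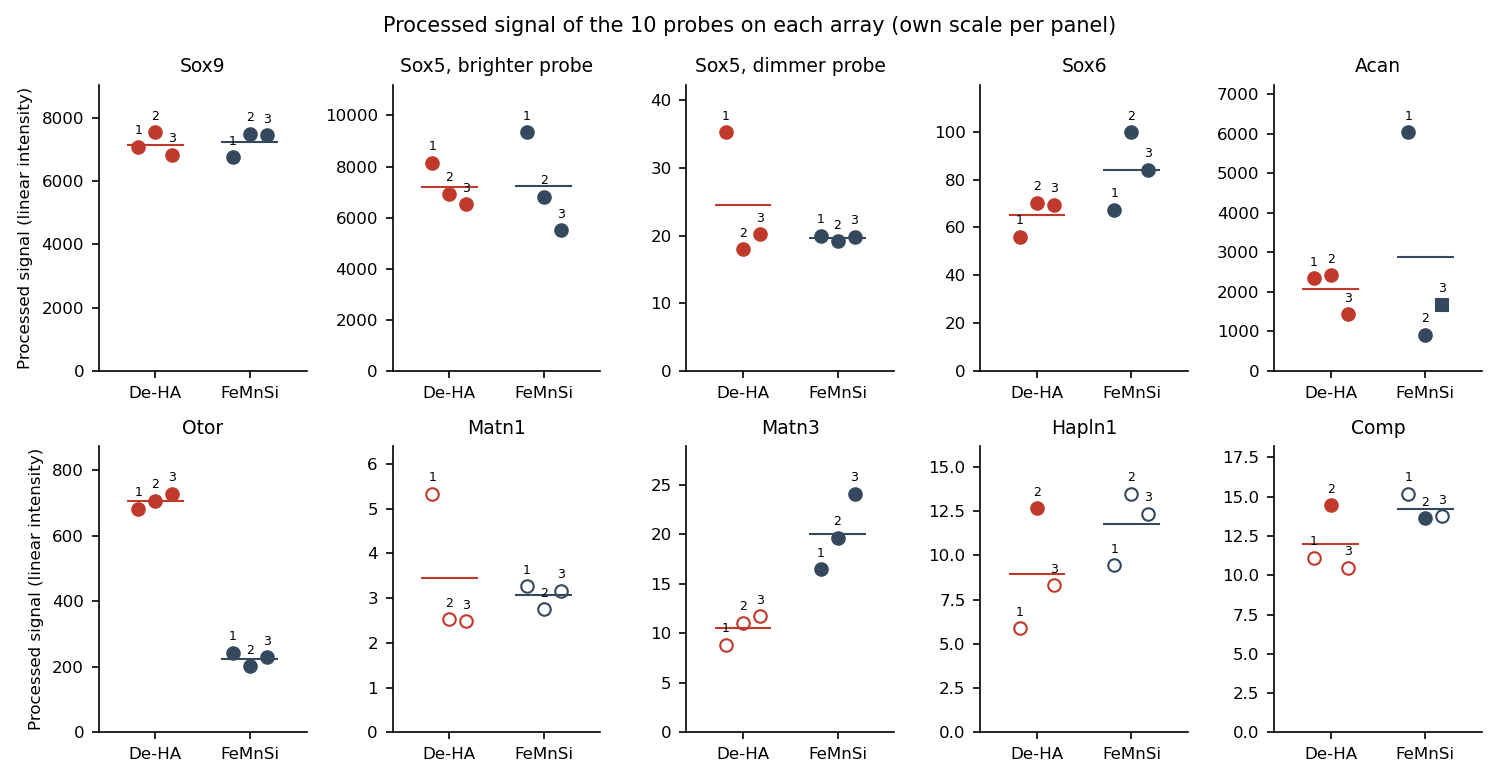
Processed signal (linear intensity, own scale in each panel) of the 10 member probes, with De-HA left of FeMnSi, replicate numbers above the points and a line at the group mean (n = 3). Open points were not well above background and the square is the Acan spot marked as non-uniform. Otor lies at 681 to 728 in De-HA and 201 to 243 in FeMnSi.

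Sox9, the master regulator of chondrocyte fate, was bright and even in all samples. Its processed signal was 7080, 7542 and 6826 in De-HA samples, against 6745, 7501 and 7443 in FeMnSi samples. The ranges overlap almost wholly, and the group means were 7149 ± 363 in De-HA and 7230 ± 421 in FeMnSi (SD, n = 3 each). After scaling by the 75th percentile the De-HA arrays lay above the FeMnSi arrays, with a difference of 0.15 ± 0.08 (limma SE), a ratio of 1.11. That order depended on the scaling, since the difference was 0.06 with median scaling, -0.02 after quantile normalization and -0.03 in the authors' deposited matrix.

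The Sox9 probe was printed 10 times on each array, which allows the spot-to-spot error to be read directly. The spots spread with a coefficient of variation of 9.22%, 3.51% and 4.38% in De-HA samples, and of 4.86%, 4.87% and 4.82% in FeMnSi samples. The 6 array means spanned 11.1% of their mean. On the log2 scale a mean of 10 spots had an SE of 0.025 from the spots alone, while the SD of the 6 normalised array means was 0.08. The 6 array means together therefore spread wider than spot error, but that spread includes the group difference of 0.15, which depended on the scaling. Within a group their SD was 0.026 in De-HA and 0.015 in FeMnSi, near or below the SE from the spots.

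**Figure D2:**
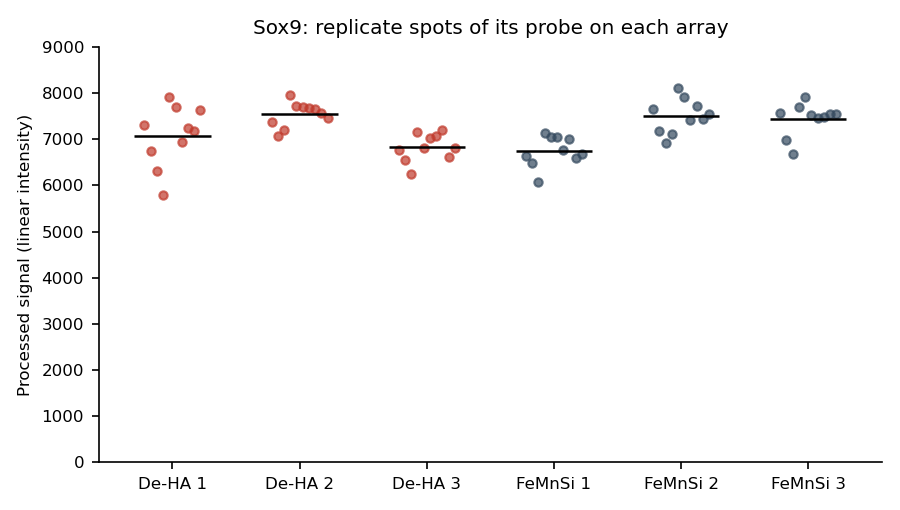
Processed signal (linear intensity) of the 10 Sox9 spots on each of the 6 arrays, De-HA in red and FeMnSi in dark blue, with a line at the mean of the array. Array means run from 6826 to 7542 in De-HA and from 6745 to 7501 in FeMnSi, so the groups overlap.

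Sox5 and Sox6 encode the SOXD proteins, which lack a transactivation domain and help SOX9 to act at cartilage enhancers. The brighter Sox5 probe gave 8148, 6933 and 6520 on the De-HA arrays and 9343, 6813 and 5504 on the FeMnSi arrays. FeMnSi holds both the highest and the lowest of the 6 values, and the difference was 0.19 ± 0.22 (SE). It was -0.30 against FeMnSi 1 alone and 0.43 against FeMnSi 2 and 3, so its sign rests on which FeMnSi arrays are used. The dimmer Sox5 probe gave 35.3, 18.0 and 20.2 in De-HA and 20.0, 19.2 and 19.8 in FeMnSi, a difference of 0.42. De-HA 1 is the only value above the range of 18.0 to 20.2 that holds the other arrays.

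Sox6 gave 56.1, 70.3 and 69.5 in De-HA and 67.5, 99.8 and 84.2 in FeMnSi. FeMnSi 1 lies inside the De-HA range and the slide 2 arrays lie above it. The difference was -0.19 ± 0.15 (SE) over all arrays, 0.02 within slide 1 and -0.29 against FeMnSi 2 and 3. None of the 3 SOX members was past the threshold in any of the 18 alternative fits.

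Otor had the largest difference of the set. It encodes otoraplin, a small secreted protein of the MIA family that is known from the cochlea and from cartilage. The signal was 681, 706 and 728 on the De-HA arrays, against 243, 201 and 230 on the FeMnSi arrays. Groups were far apart, and replicates within each group were close, with means of 705 ± 23.2 in De-HA and 224 ± 21.3 in FeMnSi (SD, n = 3 each). The difference was 1.82 ± 0.13 (SE), or 3.52-fold, which placed Otor at rank 6 from the highest among the 15535 genes.

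The Otor value kept its sign by slide and by source, though its size varied. It was 1.62 within slide 1 and 1.92 against the arrays of slide 2. Quantile normalization gave 1.81, median scaling 1.73, the deposited matrix 1.79 and normexp background correction 1.45. Leaving out each array in turn gave 1.71 to 1.92, and all 18 alternative fits lay between 1.45 and 1.92. The median pixel brightness of the spot before any correction was 686, 709 and 718 in De-HA and 255, 202 and 234 in FeMnSi, over a local background of 13 to 15.

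**Figure D3:**
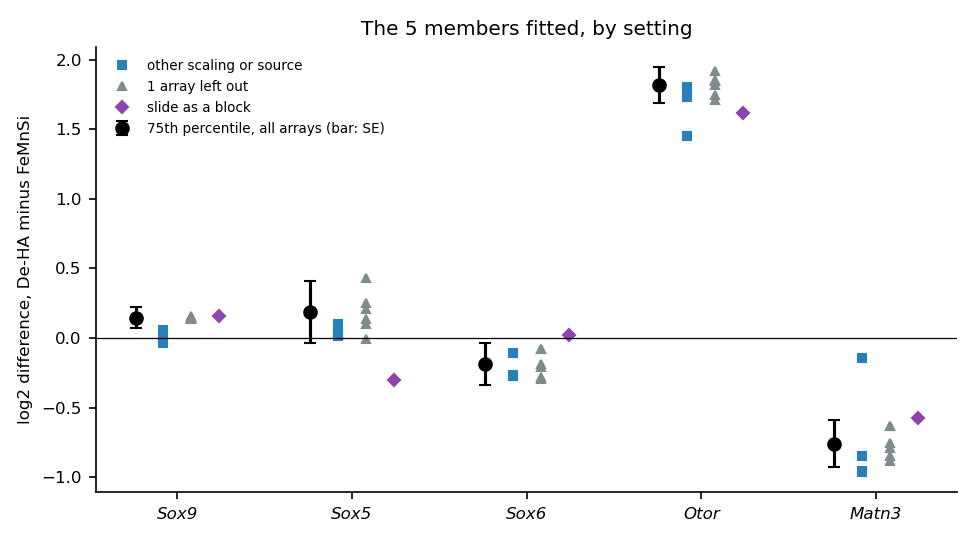
Log2 difference, De-HA minus FeMnSi, of the 5 members in the fit: black points with SE bars for all arrays scaled by the 75th percentile, blue squares for other scalings or the deposited matrix, grey triangles with 1 array left out and purple diamonds with slide as a block. Otor stays between 1.45 and 1.92, Sox9 between -0.03 and 0.16, and Sox5 and Sox6 cross 0.

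The bases before the start sites of Otor and Matn3 are shown because theirs were the largest fitted differences of the set in each direction. They are the 250 bases upstream on the gene's strand, from RefSeq on GRCm38.p6, with TATAAA in capitals where present. The arrays themselves were designed on an older build, and no array coordinate was used.
Otor, chr2:143078143-143078392, plus strand: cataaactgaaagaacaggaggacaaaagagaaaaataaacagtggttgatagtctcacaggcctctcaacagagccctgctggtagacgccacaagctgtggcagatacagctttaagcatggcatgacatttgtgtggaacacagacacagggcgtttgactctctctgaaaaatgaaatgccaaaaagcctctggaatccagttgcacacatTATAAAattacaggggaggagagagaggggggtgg
Matn3, chr12:8947679-8947928, plus strand: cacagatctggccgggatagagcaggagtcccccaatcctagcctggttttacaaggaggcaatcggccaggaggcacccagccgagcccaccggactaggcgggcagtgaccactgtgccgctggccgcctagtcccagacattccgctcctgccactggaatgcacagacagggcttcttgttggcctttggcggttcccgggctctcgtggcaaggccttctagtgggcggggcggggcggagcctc

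The Otor window holds TATAAA on its own strand, starting 35 bases before the start site, and the Matn3 window holds none. Searched on both strands, TATAAA occurs in 12.4% of 32851 such windows. The SOX core ACAAT, on both strands, is in 27.7% of windows and in neither of these. Start sites of 7 members were in the table, with 12 windows in all, and ACAAT was found in 5 windows of 3 members, namely Sox5, Sox6 and Hapln1. These matches describe the letters of a short window and not binding.

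Matn3, the matrilin of growth plate cartilage, was dim in all samples. Its processed signal was 8.86, 11 and 11.7 in De-HA samples, none of them well above background, against 16.4, 19.6 and 24.1 in FeMnSi samples, all well above it. The groups did not overlap, and the fitted difference was -0.76 ± 0.17 (SE), -0.57 within slide 1. De-HA has only a bound, so each De-HA signal was replaced by the lowest signal called well above background on that array where that was higher. Set against the FeMnSi mean, this makes Matn3 1.18-fold lower in De-HA, or 0.24 on the log2 scale. That value holds for the means of these scaled signals and carries no sampling error. It is no lower limit across methods, since normexp gave a difference of -0.14. The lowest signal called well above background was 23.9 on De-HA 1 and 11.7 to 12.0 on the other De-HA arrays.

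The Matn3 value also depended on how background was removed. Before correction, the median pixel brightness was 53, 41 and 41 in De-HA and 49, 50 and 55 in FeMnSi, and De-HA 1 lay inside the FeMnSi range. With normexp the difference was -0.14. Of the 18 alternative fits Matn3 passed in 7 and was not past the threshold or not tested in 11, among them slide as a block and the fits without De-HA 1, De-HA 2, De-HA 3, FeMnSi 2 or FeMnSi 3.

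Matn1, the other matrilin of the set and a protein of resting and proliferating cartilage, was at the level of empty spots. It gave 5.33, 2.53 and 2.48 in De-HA and 3.26, 2.75 and 3.17 in FeMnSi. The median negative control spot of the same arrays gave 5.15, 2.47 and 2.42 in De-HA and 3.12, 2.66 and 3.08 in FeMnSi. The signal followed the control spots array by array, but the deposited signals hold a surrogate for low signals, so this likeness may be built in. Before correction, the median pixel brightness was 32, 25 and 24 in De-HA and 25, 27 and 29 in FeMnSi.

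Acan encodes aggrecan, the large proteoglycan whose sulfated chains hold water in cartilage. Its signal was 2340, 2416 and 1439 in De-HA samples, against 6037, 914 and 1667 in FeMnSi samples. The FeMnSi arrays alone span more than the full De-HA range, with FeMnSi 1 highest of all 6 arrays and FeMnSi 2 lowest. With the marked spot on FeMnSi 3 kept, the difference was 0.10 with an SE of 0.87 from the spread of the 6 arrays.

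The sign for Acan depended on the FeMnSi array. Against FeMnSi 1, on the same slide, De-HA was lower by -1.51 on the log2 scale, and against FeMnSi 2 and 3 it was higher by 0.91. FeMnSi 1 exceeded FeMnSi 2 by 2.86, which by size was number 13 among 15606 genes when spots marked as outliers are kept. For comparison, the median size of the gap between FeMnSi 1 and the mean of FeMnSi 2 and 3 was 0.20 over those genes, and the gap of Acan was 2.41. That of Sox5 was 0.73, of Sox6 -0.32, of Otor 0.30, of Matn3 -0.28 and of Sox9 -0.02.

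Hapln1 encodes the link protein that locks aggrecan onto hyaluronan. It gave 5.88, 12.7 and 8.31 in De-HA and 9.46, 13.5 and 12.4 in FeMnSi, with De-HA 2 alone well above background. The groups overlap, and no fold is given because neither group was measured above background as a whole. Comp encodes a pentameric thrombospondin of cartilage and tendon. It gave 11.1, 14.4 and 10.5 in De-HA and 15.2, 13.6 and 13.7 in FeMnSi, with De-HA 2 and FeMnSi 2 well above background and the groups overlapping. A level was therefore not measurable for Comp, Hapln1 or Matn1 on most arrays, and a difference could not be seen at this brightness.

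The closest relatives of the members were read for the same contrast, with limma and Benjamini-Hochberg adjustment over all genes. Matrilins moved in opposite directions: Matn4 rose by 0.62 ± 0.09 (SE, adjusted p = 0.0116), at 591, 666 and 587 in De-HA and 447, 458 and 438 in FeMnSi. Matn2 fell by 0.51 ± 0.08 on the log2 scale (SE, adjusted p = 0.0176), at 3255, 3626 and 3240 in De-HA and 5309, 5442 and 5319 in FeMnSi. Both groups of each gene lie apart, but neither passed once slide was a block (adjusted p = 0.0801 for Matn4 and 0.0672 for Matn2), and without 1 array they passed in 3 and 2 of 6 fits.

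Mia, the MIA family relative of Otor, did not pass. It gave 31.4, 28.2 and 26.9 in De-HA and 27.7, 30.8 and 26.3 in FeMnSi (difference 0.19 ± 0.10 SE, adjusted p = 0.223). Of the thrombospondins related to Comp, Thbs1, Thbs2 and Thbs3 gave differences of 0.10, -0.02 and -0.0042 and did not pass, and Thbs4 was well above background on 0 arrays. Vcan, the versican proteoglycan related to aggrecan, gave -0.35 ± 0.10 (SE, adjusted p = 0.0710), with its fitted probes from -0.35 to 0.10. Its call turned with the processing: it passed at -0.39 under quantile normalization and -0.35 under normexp and with an intensity trend. In the deposited matrix it gave 0.71 and with outlier spots kept 0.84, without passing. Both of these settings leave out no probe for outlier spots. On the main scaling 0.84 lies outside the range of the fitted probes, so another Vcan probe most likely stood for the gene there. Neither value is then comparable with -0.35. Hapln3 gave -0.09 and did not pass. Sox4 (0.23, its probes from 0.23 to 0.57) and Sox10 (-0.02) did not pass, and Sox8 was well above background on 0 arrays. Without FeMnSi 1 Sox4 did pass, in a fit where 4611 of all genes passed.

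Beyond the members, 118 other cartilage genes in 4 lists were read from the same fit. The lists were chosen with earlier results of these data known, so the shares here and per list below are no test. Of the 92 tested, 17 rose and 5 fell, or 23.9% against 10.7% of all genes, and the median difference was 0.22 against 0.10 over all genes. Quantile normalization gave 12 and 7 with a median of 0.11 against 0.00. With slide as a block 4 passed (Ccn2, Fgfr3, Sox11 and Spp1), and 1.16% of all genes. Leaving out 1 De-HA array gave 9, 6 or 4 passing genes, and leaving out FeMnSi 1 gave 39, FeMnSi 2 gave 11 and FeMnSi 3 gave 4. Over all 15535 genes the same fits gave 512, 374 and 235 without 1 De-HA array. They gave 4611 without FeMnSi 1, 524 without FeMnSi 2 and 227 without FeMnSi 3, so the list counts moved with those of all genes.

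Among transcription factors of chondrogenesis, 6 of 23 tested rose and 0 fell at an adjusted p of 0.05 in limma. Sox11, a SOXC gene of skeletal progenitors, had the largest rise at 2.45-fold (1.29 ± 0.12 SE, adjusted p = 0.00358, 1.1 within slide 1). It gave 313, 377 and 339 in De-HA and 169, 148 and 152 in FeMnSi, and it passed in all 6 fits without 1 array. Sox13, the remaining SOXD gene beside Sox5 and Sox6, rose by 0.45 (adjusted p = 0.0484) and passed in 1 of those 6 fits. Arid5a (0.69) and Arid5b (0.56), whose products are partners of SOX9, the hedgehog effector gene Gli3 (0.46) and the zinc finger gene Glis3 (0.55) also rose, and passed in 1 to 3 of those fits. The other Glis3 probe gave 0.35, and the mean of the Glis3 probes gave 0.45 and did not pass (adjusted p = 0.0625, limma). Under the 4 other scalings Sox11 and Arid5a passed in 4, Gli3 and Glis3 in 3, Sox13 in 1 and Arid5b in 0. The list's count was 26.1% against 10.7% of all genes, and it came to 2 under median scaling and 1 with slide as a block. Its median was 0.27, and 0.13 to 0.21 under the other scalings.

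In the growth plate list, 7 of 24 tested genes rose and 3 fell, or 41.7% against 10.7% of all genes. Under each of the 4 other scalings 4 rose and 3 fell, and with slide as a block 1 rose and 1 fell. Fgfr3, the receptor gene that restrains chondrocyte proliferation, rose 1.82-fold (0.86 ± 0.09 SE, adjusted p = 0.00510, 0.82 within slide 1). It gave 3730, 4034 and 3734 in De-HA and 2298, 2285 and 2495 in FeMnSi, though its other probe gave 0.22. The BMP antagonist gene Chrdl1 rose by 0.79 (its probes from 0.26 to 0.79), the gene Pthlh of parathyroid hormone-related protein by 0.63 and the channel gene Panx3 of hypertrophic cells and osteoblasts by 0.48. Alpl and Ibsp, shared with osteoblasts, rose by 0.85 and 0.79, though the other Ibsp probe gave 0.17 and the mean of the Ibsp probes gave 0.48 and did not pass (adjusted p = 0.0569, limma). Ihh, which falls outside the naming rule and was chosen after its value was seen, rose by 0.42 at a dim signal.

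The 3 genes that fell were Spp1, Grem1 and Gdf6. Spp1, the osteopontin gene expressed in hypertrophic cartilage and bone, fell by 1.09 on the log2 scale (adjusted p = 0.00526). Grem1, a BMP antagonist gene, fell by 0.92 (0.11 SE, adjusted p = 0.00892), at 309, 267 and 253 in De-HA and 495, 642 and 624 in FeMnSi. Gdf6, a growth factor gene of joint formation, fell by 0.94 at a dim signal, with 26.8, 24.8 and 26.6 in De-HA and 46.1, 72.2 and 52.9 in FeMnSi. Panx3, Pthlh and Ihh did not pass under any of the 4 other scalings, while Fgfr3, Chrdl1, Alpl, Ibsp, Spp1, Grem1 and Gdf6 passed under all 4. Fgfr3 and Spp1 passed in all 6 fits without 1 array, Grem1 and Ibsp in 4, and the others in 1 or 2. The list median was 0.29, and 0.08 to 0.21 under those scalings.

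Of 23 other matrix genes tested, 2 rose (Matn4 and Ccn2) and 1 fell (Matn2), or 13% against 10.7% of all genes. The list median was 0.10, equal to that of all genes. Ccn2, a matricellular growth factor gene of hypertrophic cartilage and of stretched cells, rose 2.12-fold (1.08 ± 0.13 SE, adjusted p = 0.00811). Of 22 tested genes of matrix turnover, 2 rose and 1 fell, or 13.6% against 10.7% of all genes, so both shares were near that of all genes. Htra1, a secreted serine protease gene, rose by 0.66 and the hyaluronan synthase gene Has1 by 0.76, while the inhibitor gene Timp1 fell by 0.49. Htra1, Has1 and Timp1 did not pass once slide was a block, and each passed in 1 of 6 fits without 1 array.

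**Figure D4:**
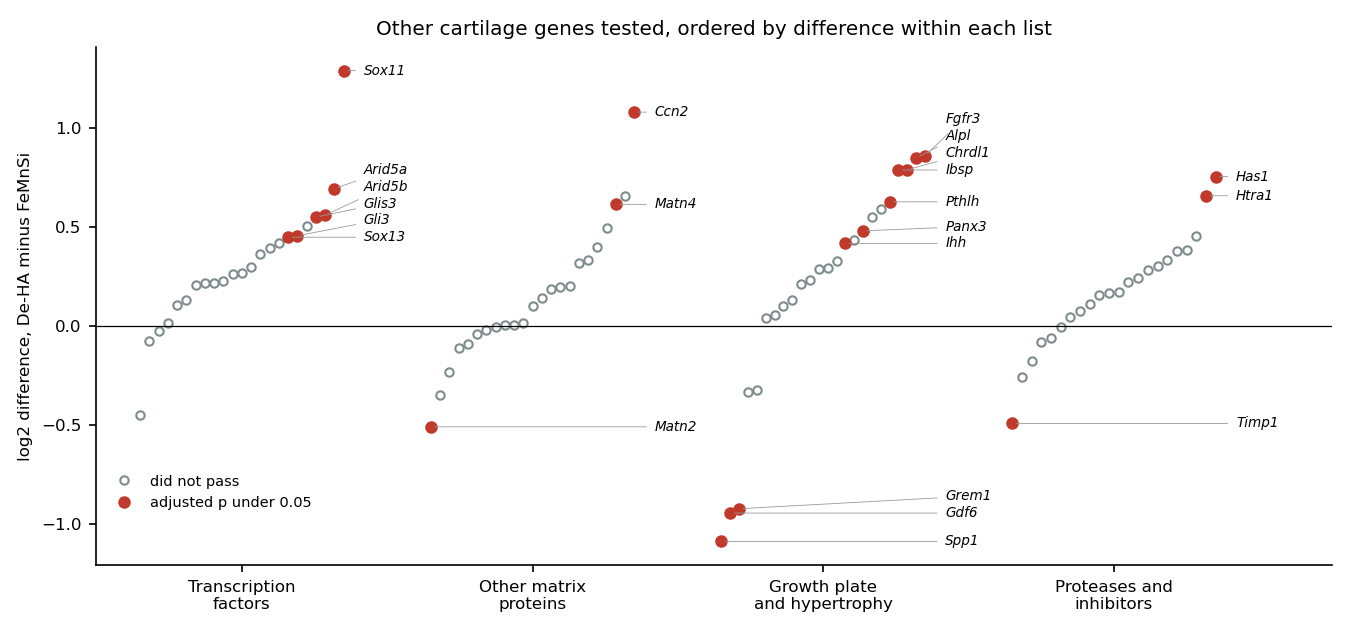
Log2 difference, De-HA minus FeMnSi, of each tested gene in the 4 lists of other cartilage genes, ordered within its list. Filled red points are past an adjusted p of 0.05 in limma, open points are not. Sox11 lies highest at 1.29 and Spp1 lowest at -1.09.

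Markers of other cell types differed between the same groups, and their part in the values above was not tested. Summed signals of a list are carried by its brightest probes. Of 7 tested smooth muscle markers 5 rose (Acta2, Myl9, Tagln, Actg2 and Cnn1), and the sum was 53988 to 62900 in De-HA and 26695 to 32704 in FeMnSi. Of 8 osteoblast markers 5 rose (Phex, Alpl, Sp7, Runx2 and Ibsp). Their sum, 112670 to 142740 in De-HA and 98727 to 111730 in FeMnSi, was mostly Col1a1 and Col1a2, which did not pass. The chondrocyte sum, 13501 to 15342 in De-HA and 13112 to 16218 in FeMnSi, was nearly all Sox9 and Sox5. Outside the members, Ucma (0.66, adjusted p = 0.0642) and Chad (0.34, adjusted p = 0.173) did not pass. Tendon markers (4 tested, with Tnmd and Thbs4 at background) overlapped, at 4481 to 5107 in De-HA and 4863 to 5275 in FeMnSi. Of 5 tested adipocyte markers Fabp4 fell, at 31.8, 25.7 and 21.2 in De-HA and 107, 133 and 108 in FeMnSi. The adipocyte sum, 138 to 168 in De-HA and 222 to 262 in FeMnSi, followed Fabp4, while Pparg gave 0.00086 and Lpl 0.94 and neither passed. Of 2 tested endothelial markers Kdr rose and Pecam1 did not pass, while Cdh5, Tek, Tie1, Emcn, Vwf and Cldn5 were too dim to test. Of 6 tested myeloid markers 2 rose and 1 fell, while Tyrobp was too dim and Cd68 had no probe. Over all genes 10.7% passed.

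By Pearson's r over the 6 arrays, the genes outside the set most like Otor were Zfp957, Lrrk1 and Plxdc2, with r of 1.00, 0.999 and 0.999. Their differences were 0.69, 0.64 and 0.73. For Sox9 they were Tepsin, Afdn and Rpp21, with r of 0.997, 0.996 and 0.996. The points share their 2 groups and their scaling, and r exceeded 0.95 for 715 and 397 of 15530 genes, so these names describe likeness only.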

How the data were processed

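RNA of 6 samples was measured, 1 array each. Per the file headers and the submitters' processing notes, the authors read the arrays with Agilent Feature Extraction 11.0.1.1; the deposited signals are linear intensity values, background-subtracted and detrended, with a surrogate for low signals and no scaling between arrays. The authors' deposited matrix holds log2 values whose columns all have a median of 5.78, and it was used as an alternative. How it was normalized is not given in the sources used here.

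Of 44397 spots 1377 were controls. From each log2 signal the 75th percentile of the array's non-control spots was subtracted, spots marked as outliers were left out, and spots of a probe were averaged. Of 39429 probes, 28380 were well above background on at least 3 arrays, and 205 of these were left out because every spot was an outlier on some array. Accessions were matched to RefSeq symbols of GRCm38.p6 for 27234 of 28684 probes. The brightest probe stood for a gene. Normexp used gMedianSignal, with an offset of 50, since the mean signal was not in the files. The group comparison used limma 3.58.1 with Benjamini-Hochberg adjustment, run in R 4.3.3, and was tested on simulated data. Figures used matplotlib 3.10.9 in Python 3.11.15. The 6 arrays limit the precision.

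The members and lists were chosen with earlier results of these data known. All 9 members and their 12 closest relatives were named whatever their values. From each list up to 6 genes per direction with the smallest p-values past the threshold were named, and the 3 genes most like Otor and Sox9. Alternatives were other scalings, filters and probe rules, the slide or replicate number as a block, and each array left out; the arrays of slide 1 alone were added after seeing the data. Same-numbered samples of the groups gave r of 0.01, -0.11 and 0.12 between their deviations from the group mean. Differently numbered samples gave -0.25 to 0.23. These values cannot show whether the numbers pair samples, and the main fit did not pair them. Promoter windows came from RefSeq, which listed 7 of the 9 members.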

Additional observations from a re-analysis of the deposited data

How the results depend on the processing

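Each group had 3 arrays, and by scan times FeMnSi 1 shared slide 1 with De-HA. Of all genes, 1669 passed. The count fell to 519 when dim probes were not filtered, to 180 when slide was a block and to 36 when only slide 1 was used. Leaving out 1 De-HA array gave 512, 374 or 235 genes, while leaving out FeMnSi 1 gave 4611, FeMnSi 2 gave 524 and FeMnSi 3 gave 227. With a replicate block 693 genes passed, 571 of them among the 1669. Higher genes made up 60.1% of the 1669, 43.8% of those after quantile normalization, 37.3% under median scaling, 45.2% under normexp and 41.3% in the deposited matrix. In that order the median difference over all genes was 0.10, 0.00, 0.02, 0.00 and -0.01.

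Of the 5 members fitted 2 passed, and of all genes 10.7%. Matn3 entered the fit only through the FeMnSi arrays, where it was high. Otor was the 1 that passed under normexp, no filter, the filter on all 6 arrays, an intensity trend and slide as a block. Leaving out 1 array gave 1 to 2 members, and the replicate block gave 2. Over all genes the count in these fits ran from 180 with slide as a block to 4611 without FeMnSi 1. Of the other cartilage genes 22 passed, against 9 without the filter and 4 when slide was a block. The count was 11 with the replicate block and 4 to 39 without 1 array. Higher genes were 77.3% of the 22, 63.2% after quantile normalization and in the matrix, 66.7% under median scaling and 56.0% under normexp. Members and named genes past the threshold kept their sign in all alternatives where they were tested. Signal near background limits Matn1, Hapln1, Comp and Matn3. The causes of these shifts were not tested.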
